A study of Rattus norvegicus with 192 samples.

Results

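Adipoq (ENSRNOG00000001821), Retn (ENSRNOG00000001001), Fabp4 (ENSRNOG00000010805) and Slc2a4 (ENSRNOG00000017226) are the 4 adipocyte marker genes described here, of 12563 genes with a row in any of the 8 mRNA tables of the study. They were set by name. The study listed all 4 as changed by whole egg, Retn and Slc2a4 in ZDF adipose tissue and Adipoq and Fabp4 in ZDF liver. Adipoq, Retn and Fabp4 had a row in all 8 tables. Slc2a4 had a row in 3, which were those of ZDF adipose tissue, lean adipose tissue and the lean prefrontal cortex (PFC).

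The libraries came from the adipose tissue, kidney, PFC and liver of 24 male rats, obtained at 6 wk of age and fed a whole egg or a casein diet for 8 wk. The Zucker diabetic fatty (ZDF) rats carry the fa allele of the leptin receptor on both chromosomes (fa/fa), become obese and develop type 2 diabetes, and their lean controls carry 1 copy (fa/+). The groups were ZDF whole egg, ZDF casein, lean whole egg and lean casein, with 6 rats in each. The whole egg diet held dried egg, and the casein diet had corn oil added to match its lipid. Genotype was taken from the column headers of the tables. The strain in the sample labels gave another genotype for 12 of the 24 rats, so adipose results are given under both sources. The depot of the adipose tissue is not given in the sources used here.

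White adipocytes store triglyceride and secrete hormones. Adipoq encodes adiponectin, a hormone that raises insulin sensitivity and that circulates at lower levels in obesity. Retn encodes resistin, which in rodents is made by adipocytes and opposes insulin action. Fabp4 encodes the cytosolic fatty acid binding protein of adipocytes, which macrophages also make. Slc2a4 encodes GLUT4, the glucose transporter that insulin brings to the surface of adipocytes and muscle cells. The transcription of these genes rises as preadipocytes mature, under PPARG and C/EBP factors.

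The promoter windows of both hormone genes are shown because these are the 2 members with an entry, and Adipoq and Retn are the members that passed between groups of adipose tissue in some alternatives. Each window holds 250 bases before and 50 bases after the start site, from RefSeq (GRCr8), and 2 of the 4 genes matched an entry. The window of Adipoq is chr11:91240120-91240419 on the minus strand, and that of Retn is chr12:6508524-6508823 on the plus strand. Capitals mark CCAAT on either strand in Adipoq and AGGTCA in Retn.
Adipoq: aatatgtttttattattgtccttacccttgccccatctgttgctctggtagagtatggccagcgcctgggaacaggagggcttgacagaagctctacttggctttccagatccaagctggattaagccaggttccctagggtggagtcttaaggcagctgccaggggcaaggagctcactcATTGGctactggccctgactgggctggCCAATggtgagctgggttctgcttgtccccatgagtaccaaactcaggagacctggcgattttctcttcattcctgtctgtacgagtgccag
Retn: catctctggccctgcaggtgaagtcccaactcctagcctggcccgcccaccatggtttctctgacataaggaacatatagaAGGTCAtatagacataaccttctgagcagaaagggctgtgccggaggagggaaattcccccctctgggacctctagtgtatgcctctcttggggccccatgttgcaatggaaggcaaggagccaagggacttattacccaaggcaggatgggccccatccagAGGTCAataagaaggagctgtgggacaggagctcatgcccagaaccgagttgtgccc

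Of 5 motifs searched on both strands, the Adipoq window held CCAAT, the letters of the CCAAT box, beginning 42 bases before the start site, and its reverse complement beginning 69 bases before it. CCAAT is in 37.5% of 33469 promoter windows of the same length. The Retn window held AGGTCA, the core site of nuclear receptors such as PPARG with RXR, beginning 169 and 7 bases before the start site. AGGTCA is in 16.2% of the windows. The letters TATAAA (14.2% of windows), TTGCNNAA of C/EBP factors (10.6%) and CACGTG of the E-box (6.42%) are in neither window. None of these motifs overlapped another. A match is a run of letters and not a measured binding site.

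Library totals ranged widely, and outside the ZDF liver table they may differ from read depth, for the reason given below. They were 30819 to 4116202 in adipose tissue, 138171 to 5356262 in kidney, 67861 to 7080897 in PFC and 735993 to 9284567 in the ZDF liver table. The lowest was that of the adipose library of rat 11 (ZDF whole egg). The values of all tables but that of ZDF liver look to be counts multiplied by 1 factor per library and rounded, and the ZDF liver table holds counts. Levels are therefore given relative to the TMM-scaled library total (CPM), in which such a factor cancels. Labelled tissues were checked with the few defining markers that had a symbol. Mbp of myelin was at 1629 to 6277 CPM of the unscaled total in the 24 PFC libraries and at no more than 941 in any other tissue. Apoa1 of hepatocytes was at 428 to 4532 CPM of the unscaled total in liver tables, and the kidney tubule markers had no symbol in the sources used here. Apoa1 reached 1914 CPM of the unscaled total in 1 ZDF adipose library, that of rat 11, in which Mbp stood at 941.

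In ZDF adipose tissue, resistin and GLUT4 transcripts were higher on whole egg than on casein in most libraries, but 0 of 4 members passed the test over all 7772 genes (limma, Benjamini-Hochberg adjusted p under 0.05). The background was 0.0129% of genes called. At an unadjusted p under 0.05 there were 2 members, Retn and Slc2a4, and 4.66% of all genes. The study listed both as higher on whole egg here, so their count is not independent evidence. This comparison asks whether dietary whole egg changes adipose transcripts in the diabetic model. Bulk tissue was sequenced, so fewer adipocytes and less of a transcript per adipocyte cannot be told apart in any comparison here.

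Retn was at 341, 1067, 1198, 1360, 2431 and 3137 CPM (median 1279) in ZDF whole egg rats, against 223, 230, 233, 358, 682 and 710 CPM (median 296) in ZDF casein rats. Of the whole egg libraries, rat 11 alone lay within the casein range, and without it the groups did not overlap. The 341 CPM of rat 11 stand for a deposited value of 20. Retn had a log2 fold change of 1.89 (SE 0.52, limma adjusted p = 0.84). It passed without rat 11, the lowest whole egg library for Retn, at 2.28 (SE 0.40, limma adjusted p = 0.034), when 7 genes were called in all. It also passed with DESeq2 (1.95, adjusted p = 0.021), which called 18 genes, and with limma-voom and sample weights (2.12, adjusted p = 0.013), which called 53.

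Slc2a4 was at 51.1, 61.9, 90.5, 107, 133 and 186 CPM in ZDF whole egg rats, against 0, 16.7, 32.0, 36.1, 37.6 and 49.0 CPM in ZDF casein rats. The groups did not overlap, but the value of 51.1 CPM in rat 11 rests on a deposited value of 3, and rat 5 (ZDF casein) was listed at 0. Slc2a4 had a log2 fold change of 2.39 (SE 0.80, limma adjusted p = 0.84), and without rat 5 it was 1.53 (SE 0.45, limma adjusted p = 0.85). Of 7395 genes with a row in both adipose tables, 0.649% had groups that did not overlap in this comparison, in either direction. Slc2a4 was the 1 member among them.

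Adipoq was at 783, 2170, 2452, 2591, 2617 and 3122 CPM in ZDF whole egg rats, against 802, 1010, 1386, 1486, 1705 and 1776 CPM in ZDF casein rats. Rat 11 was the lowest library of both groups, and the other 5 whole egg libraries lay above every casein library. The 783 CPM of rat 11 stand for a deposited value of 46, within the range of 8 to 132 of Adipoq outside adipose tissue. The rank of rat 11 rests on the TMM factors. In CPM of the unscaled total it was at 1493, within the casein range, and rat 5 (ZDF casein) was lowest at 316. Adipoq had a log2 fold change of 0.73 (SE 0.40, limma adjusted p = 0.84), and 1.02 (SE 0.29, adjusted p = 0.32) without rat 11. Without that rat 3 of the 4 members, Adipoq, Retn and Slc2a4, had groups that did not overlap, against 1.61% of genes. Rat 11 had the lowest whole egg CPM of each of these members, so leaving it out bears on this count. The share over all genes is therefore no like background.

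Fabp4, the fatty acid binding protein, had overlapping groups with and without rat 11. It was at 562 to 7284 CPM (median 3921) in ZDF whole egg rats and 2111 to 7462 CPM (median 3282) in ZDF casein rats. The 562 CPM, in rat 11, stand for a deposited value of 33. The log2 fold change of Fabp4 was -0.14 (SE 0.60, limma adjusted p = 0.96), and 0.35 (SE 0.43) without rat 11. The median log2 fold change of all genes in this fit was -0.38, and that of the 4 members was 1.31.

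The direction of the diet difference turned for both hormones with the source of genotype. Grouped by the strain in the sample labels, with 5 ZDF whole egg and 7 ZDF casein rats, the log2 fold change in adipose tissue was -0.73 (SE 0.82, limma adjusted p = 0.73) for Adipoq and -0.40 (SE 0.67, adjusted p = 0.82) for Retn. That of Slc2a4 was 1.18 (SE 0.86, adjusted p = 0.67), and that of Fabp4 was -1.88 (SE 0.88, adjusted p = 0.66). By these labels 0 of 4 members passed over 7395 genes, and 1 member, Fabp4, was at an unadjusted p under 0.05, with 7.33% of all genes. The labels also move the low library of rat 6 into the ZDF whole egg group. Adipoq was at 140 CPM and Retn at 136 CPM in that library. A fit by label without rat 6 was not run, so its part in the turn was not tested. These fits were added after the data were seen.

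**Figure D1:**
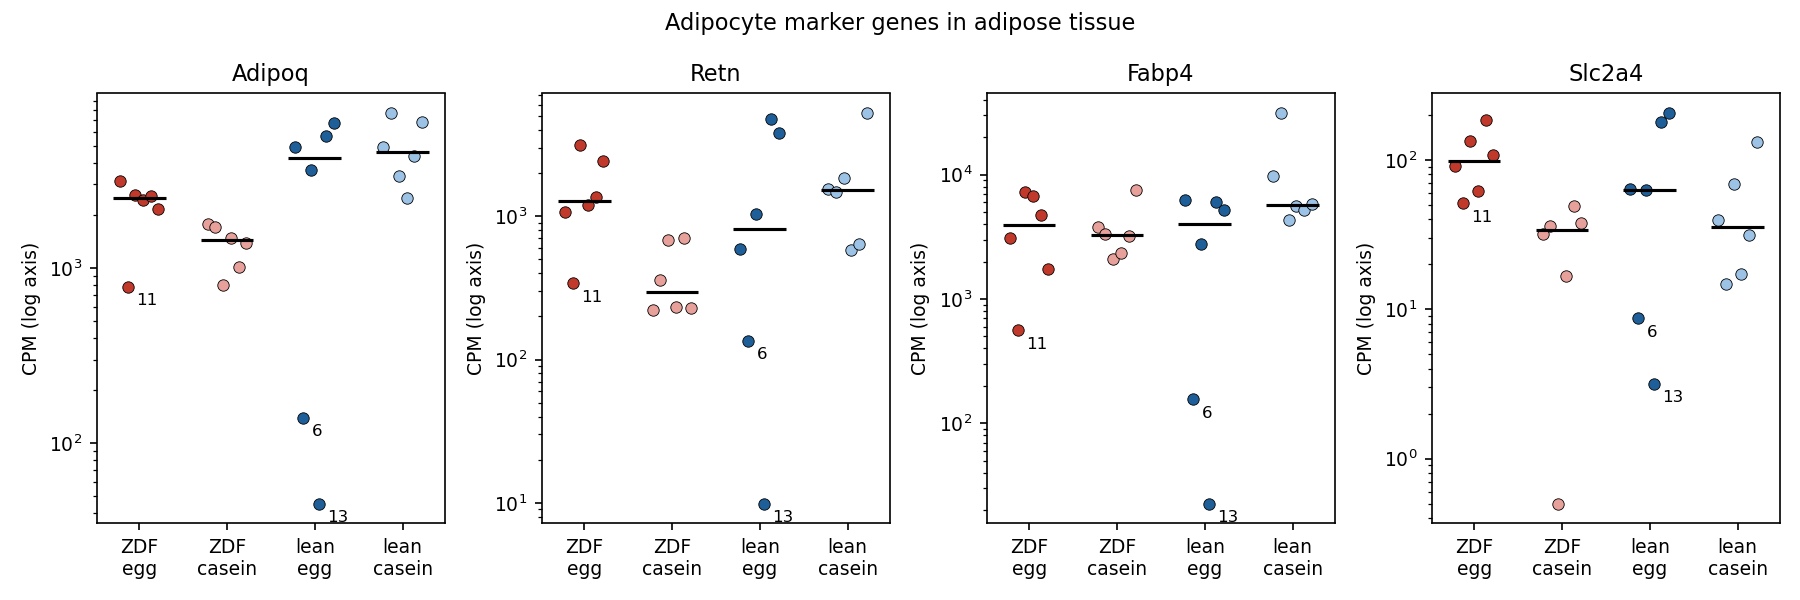
Levels of the 4 adipocyte marker genes in each adipose library (CPM, log axis), by genotype and diet. Each point is 1 rat, lines are group medians, rats 6, 11 and 13 are marked, and the Slc2a4 value of 0 is drawn at 0.5. ZDF casein points for Adipoq, at 802 to 1776 CPM, lie below all lean casein points.

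In lean adipose tissue 0 of 4 members passed between whole egg and casein (limma over 8788 genes, 1 member, Fabp4, at an unadjusted p under 0.05, as were 5.21% of all genes), with 0% of genes called. DESeq2 and limma-voom called 0 members too. The lean whole egg group held 2 libraries, of rats 6 and 13, in which every member was low. Adipoq was at 140 and 45.2 CPM in them, and at 3605, 4907, 5633 and 6710 CPM in the other lean whole egg rats, against 2509 to 7665 CPM (median 4608) in lean casein rats. The log2 fold change of Adipoq was -1.87 (SE 1.06, limma adjusted p = 0.83) with all rats and 0.13 (SE 0.45, adjusted p = 1.00) without these 2.

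Retn and Fabp4 followed the same libraries. Retn was at 136 and 9.88 CPM in rats 6 and 13, and at 587 to 4743 CPM in the other lean whole egg rats, against 586 to 5253 CPM in lean casein rats. Its log2 fold change was -1.53 (SE 1.12, limma adjusted p = 0.84), and 0.34 (SE 0.63) without rats 6 and 13. Fabp4 was at 157 and 22.6 CPM in these rats, and at 2770 to 6287 CPM in the other lean whole egg rats, against 4320 to 31330 CPM in lean casein rats. Its log2 fold change was -2.81 (SE 1.17, limma adjusted p = 0.83), and -0.70 (SE 0.56) without them.

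Slc2a4 was at 8.75 and 3.17 CPM in rats 6 and 13, and at 62.8, 63.7, 178 and 206 CPM in the other lean whole egg rats, against 14.7 to 132 CPM (median 35.5) in lean casein rats. Its log2 fold change was 0.11 (SE 0.85, limma adjusted p = 0.99) with all rats, and 1.49 (SE 0.56, adjusted p = 1.00) without these 2. GLUT4 transcript thus had overlapping groups under either set of libraries. By the strain in the sample labels, with 7 lean whole egg and 5 lean casein rats, the log2 fold changes were -0.47 (SE 0.98) for Adipoq, 0.53 (SE 1.22) for Retn, -1.20 (SE 1.13) for Fabp4 and 0.95 (SE 0.82) for Slc2a4, and 0 of 4 members passed.

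Some epithelial and leukocyte transcripts were high in rats 6 and 13, where the members were low. Relative to the median of the other 21 adipose libraries, log2 CPM of Adipoq was lower by 4.21 in rat 6 and by 5.82 in rat 13. Lpl, the lipoprotein lipase of adipocytes, was at 328 and 51.9 CPM in these rats, against 2432 to 13276 CPM in the other 21, and Lyz2, of macrophages, was at 153 and 65.3 CPM, against 570 to 6138 CPM. Of the epididymal and epithelial markers, 4 of 14 were measured. Reep6, an endoplasmic reticulum protein, was at 197 and 1610 CPM in rats 6 and 13, against 1.30 to 84.2 CPM in the other 21 libraries, and Krt8, an epithelial keratin, was at 56.9 and 186 CPM, against 2.12 to 163 CPM. Cdh1, the cadherin of epithelia, was at 265 and 739 CPM, against 0 to 151 CPM. Cd52, of leukocytes and the epididymis, was at 3256 and 1402 CPM, against 0.51 to 627 CPM, and Prom1, an epithelial membrane protein, at 560 and 1154 CPM, against 0 to 72.9 CPM. Cdh1, Cd52 and Prom1 were picked after their values were seen. The part of other cell types in the member values was not tested.

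On the casein diet adiponectin transcript was lower in ZDF than in lean adipose tissue in every library, but 0 of 4 members passed over the 7395 genes of both tables (limma, 2 members, Adipoq and Retn, at an unadjusted p under 0.05, as were 3.91% of all genes), with 0.108% of genes called. Adipoq was at 802, 1010, 1386, 1486, 1705 and 1776 CPM in ZDF casein rats, against 2509, 3329, 4342, 4875, 6821 and 7665 CPM in lean casein rats. Its log2 fold change was -1.81 (SE 0.86, limma adjusted p = 1.00). Of all genes, 1.56% had groups that did not overlap in this comparison, and Adipoq was 1 member of 4 among them.

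Rats 6 and 13 entered this estimate only through the shared spread of the 4 groups. Without them the log2 fold change of Adipoq was again -1.81, with an SE of 0.37 and a limma adjusted p of 0.022, and 29 genes were called in place of 8. Every member was low in the libraries of rats 6 and 13, so leaving them out was not independent of the values tested. DESeq2 gave -1.85 (adjusted p = 0.12) and limma-voom -1.50 (adjusted p = 0.097) with all rats. These libraries of ZDF casein rats are also those of the diet comparison, so both comparisons move with them.

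Retn was at 223 to 710 CPM (median 296) in ZDF casein rats and 586 to 5253 CPM (median 1516) in lean casein rats. These ranges overlapped in the ZDF casein libraries of rats 5 and 14. The log2 fold change was -1.99 (SE 0.95, limma adjusted p = 1.00), and it passed with limma-voom (-2.11, SE 0.53, adjusted p = 0.023). For Fabp4 the change was -1.20 on the log2 scale (SE 1.00) and for Slc2a4 -1.05 (SE 0.88), and both had overlapping groups. Without rat 5, whose Slc2a4 value was 0, the change of Slc2a4 was -0.22 (SE 0.78), and leaving out each rat in turn gave -1.34 to -0.22.

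These differences changed with the source of genotype. Grouped by the strain in the sample labels, the log2 fold change of Adipoq on casein was -0.082 (SE 0.95, limma adjusted p = 1.00) and that of Retn was -0.27 (SE 1.05). For Fabp4 it was -0.059 (SE 1.06) and for Slc2a4 -1.15 (SE 0.90). Among casein rats whose sources differ, rats 14 and 24 (ZDF by header, lean by label) had 1010 and 1386 CPM of Adipoq. Rats 4, 8 and 12 (lean by header, ZDF by label) had 4875, 7665 and 3329 CPM. Over the 12 rats whose sources agree, the log2 fold change of Adipoq was -1.64 (SE 1.36) and that of Retn -1.93 (SE 1.64), with 0 of 4 members called.

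On the whole egg diet 0 of 4 members passed between ZDF and lean adipose tissue (limma, 0 at an unadjusted p under 0.05 against 7.02% of all genes, 0 with DESeq2 and limma-voom), with 0.0135% of genes called. The log2 fold changes were 0.72 (SE 0.86) for Adipoq, 1.35 (SE 0.95) for Retn, 1.40 (SE 1.00) for Fabp4 and 1.17 (SE 0.88) for Slc2a4, with a median of -0.35 over all genes. Each turned without rats 6 and 13, to -1.27 (SE 0.41), -0.50 (SE 0.66), -0.70 (SE 0.62) and -0.20 (SE 0.81). By the strain in the labels they were -0.33 (SE 0.95), -1.19 (SE 1.05), -0.73 (SE 1.06) and -0.87 (SE 0.90). Adipoq was at 783 to 3122 CPM in ZDF whole egg rats. It was at 3605 to 6710 CPM in the 4 lean whole egg rats other than 6 and 13. These did not overlap, as was so for 1.31% of genes. Rats 6 and 13 had the lowest Adipoq of all adipose libraries, so this split rests on leaving them out. The share over all genes is therefore no like background.

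The effect of diet over both genotypes and the interaction of diet and genotype called 0 of 4 members each, with 0% of genes called in either fit (limma). At an unadjusted p under 0.05 there were 0 members for diet, with 7.15% of all genes, and 2, Adipoq and Retn, for the interaction, with 3.91%, and DESeq2 and limma-voom called 0. Over both genotypes the log2 fold changes on whole egg were -0.58 (SE 0.64) for Adipoq, 0.17 (SE 0.73) for Retn, -1.48 (SE 0.73) for Fabp4 and 1.25 (SE 0.64) for Slc2a4. The interaction, as the change on whole egg in ZDF minus that in lean rats, was 2.53 (SE 1.22) for Adipoq and 3.34 (SE 1.35) for Retn on the log2 scale. For Fabp4 it was 2.60 (SE 1.41) and for Slc2a4 2.21 (SE 1.24). Without rats 6 and 13 it was 0.54 (SE 0.55) for Adipoq, 1.49 (SE 0.89) for Retn, 0.50 (SE 0.84) for Fabp4 and 0.85 (SE 1.08) for Slc2a4. By the strain in the labels it was -0.25 (SE 1.34), -0.92 (SE 1.48), -0.67 (SE 1.5) and 0.29 (SE 1.27).

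**Figure D2:**
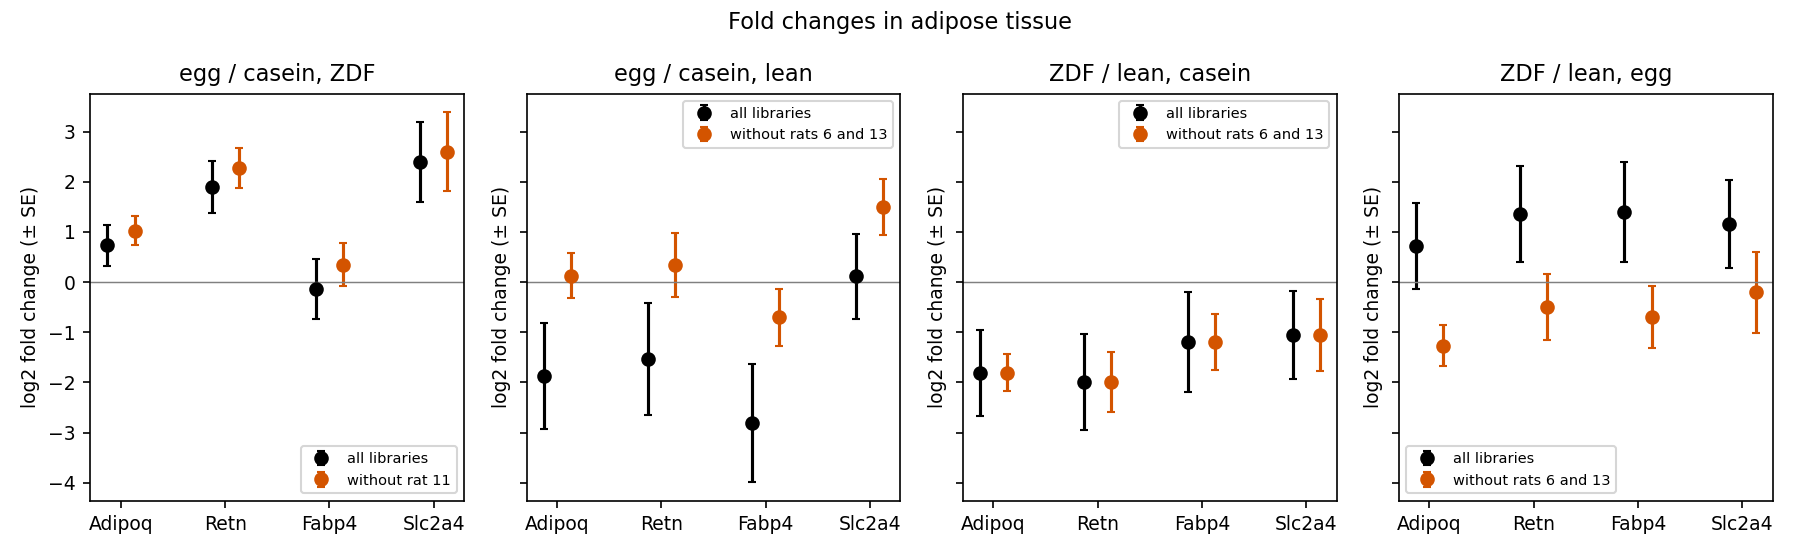
Log2 fold changes of the 4 adipocyte marker genes in adipose tissue with their SE, for whole egg over casein in ZDF and in lean rats and for ZDF over lean rats on casein and on whole egg. Black points use all libraries and orange points leave out the rats named. The ZDF to lean estimate of Adipoq on casein stays at -1.81 with an SE of 0.86 and of 0.37, and on whole egg it turns.

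Ratios of members within a library do not depend on library scaling, save for low values, on which the 0.5 added to each value weighs. None of 12 comparisons of Retn, Fabp4 or Slc2a4 relative to Adipoq passed (0 of 12, exact two-sided permutation tests on log2 ratios with 0.5 added to each value, n = 6 per group, adjusted over 12). The smallest p this design allows is 0.0022. The log2 ratio of Slc2a4 to Adipoq was -4.43 ± 0.65 in ZDF whole egg rats and -6.29 ± 2.13 in ZDF casein rats (SD, n = 6 each), a difference of 1.86 (exact permutation p = 0.019, adjusted p = 0.10), or 1.04 without rat 5, whose Slc2a4 value was 0 (exact permutation p = 0.041, adjusted p = 0.11). In lean rats it was -4.95 ± 1.02 on whole egg and -6.90 ± 1.23 on casein, a difference of 1.95 (exact permutation p = 0.015, adjusted p = 0.10).

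GLUT4 transcript relative to adiponectin thus had the same direction of difference in both genotypes, and neither passed the correction. Rats 6 and 13 had the highest ratios of the lean whole egg group, and without them the lean difference was 1.38 (exact permutation p = 0.081). The log2 ratio of Fabp4 to Adipoq was -0.19 ± 0.50 in lean whole egg rats and 0.76 ± 0.80 in lean casein rats (exact permutation p = 0.026, adjusted p = 0.10). In ZDF rats it was 0.50 ± 0.89 on whole egg and 1.37 ± 0.62 on casein (exact permutation p = 0.082, adjusted p = 0.20). By the strain of the labels, the whole egg to casein difference in ZDF rats was -1.14 and passed (exact permutation, adjusted p = 0.030).

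The log2 ratio of Retn to Adipoq was -0.71 ± 0.75 in ZDF whole egg rats and -1.87 ± 1.19 in ZDF casein rats (exact permutation p = 0.076, adjusted p = 0.20). In lean rats it was -1.36 ± 1.18 on whole egg and -1.69 ± 0.92 on casein (exact permutation p = 0.60). Resistin thus differed widely among rats of 1 group relative to adiponectin, with log2 ratios of -3.06 to -0.045 in lean whole egg rats.

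**Figure D3:**
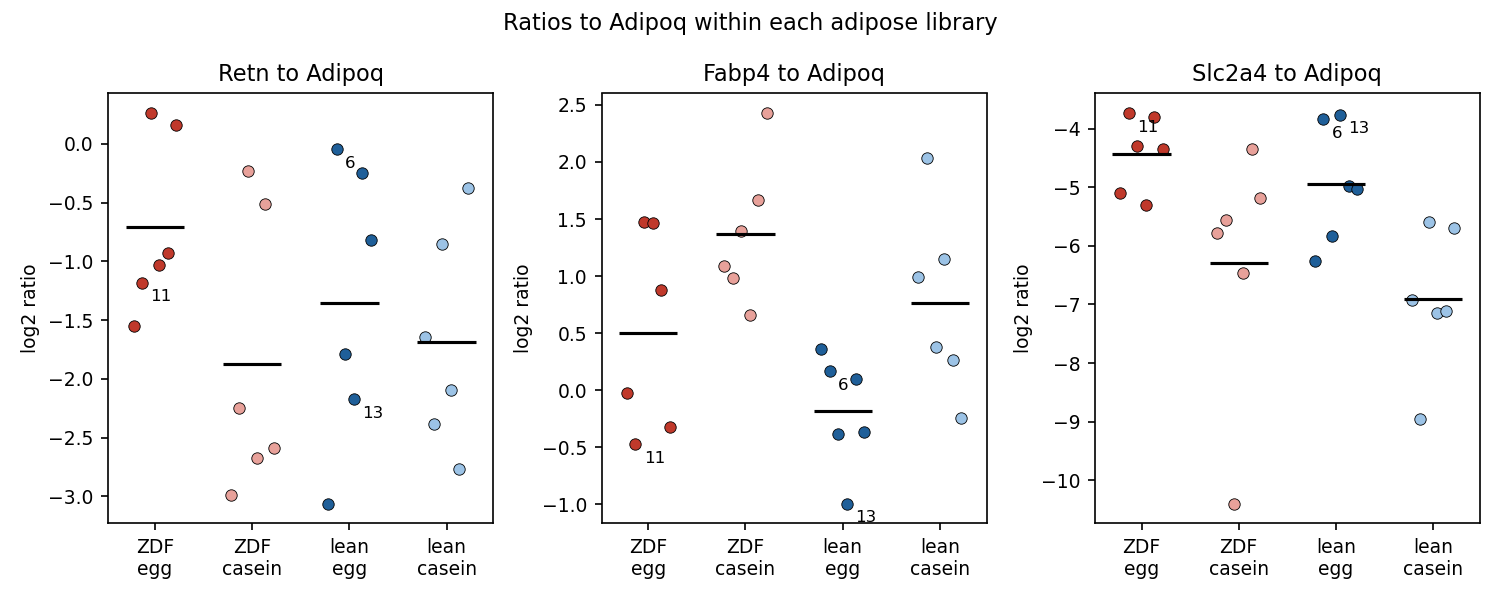
Log2 ratio of Retn, Fabp4 and Slc2a4 to Adipoq within each adipose library, with 0.5 added to each value. Points are rats, lines are group means and rats 6, 11 and 13 are marked. Slc2a4 relative to Adipoq averages -4.43 in ZDF whole egg and -6.29 in ZDF casein rats.

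The genes whose levels were most like those of the members were named by Pearson's r of log2 CPM over the 24 adipose libraries, as a description. For Adipoq the first was Plaat3, a phospholipase of adipocytes (r = 0.973), followed among genes with a symbol by Mgst1, a glutathione transferase (0.948), and Lpl (0.928). Fabp4 had r = 0.909 with Adipoq, Retn 0.842 and Slc2a4 0.620. Without rats 6, 11 and 13 these were 0.594, 0.629 and 0.511 over 21 libraries, while Plaat3 stayed at 0.941 and Cdo1, a cysteine dioxygenase, came second at 0.940. For Retn the nearest gene with a symbol was Pxmp2, a peroxisomal membrane protein (0.899), and for Fabp4 it was C6, a complement component (0.934). The 5 genes nearest to Slc2a4 had no symbol in the sources used here. These libraries share their groups and differ in their totals.

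Other genes of adipocytes and of lipid synthesis were described from lists. Symbols could be paired with identifiers only for 552 genes, the 4 members among them, that the study listed as changed in these libraries, so these counts are not independent evidence. Of 28 other adipocyte genes 4 had a symbol and a row in both adipose tables, and of 10 lipogenic genes 6 had. In every adipose comparison 0 of these 4 and 0 of these 6 passed in either direction (limma over all genes). In ZDF rats on whole egg against casein, Thrsp, a regulator of lipogenesis, stood at a log2 fold change of 2.12 (SE 0.62), Lpl at 0.47 (SE 0.59) and Scd, the stearoyl-CoA desaturase, at 0.49 (SE 0.74). The median log2 fold change was 1.12 for the adipocyte list and 1.42 for the lipogenic list, with -0.38 over all genes. In lean rats the medians were -1.48 and 0.017, with -0.020 over all genes. On casein, ZDF against lean, Thrsp was at -1.81 (SE 0.75), Lpl at -0.71 (SE 0.95) and Scd at 1.91 (SE 0.72). Adipor2, an adiponectin receptor, was the 1 of 3 receptor genes measured. Its log2 fold change on whole egg was -1.10 (SE 0.83) in ZDF and -0.73 (SE 0.83) in lean rats.

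Markers of other cells were set beside these values. Of 20 macrophage and leukocyte markers 5 were measured in ZDF adipose tissue, and 0 passed. On whole egg against casein in ZDF rats the log2 fold change of Lyz2, the lysozyme of macrophages, was -1.44 (SE 0.67). On casein, ZDF against lean, 4 were measured and 0 passed, with Lyz2 at 1.79 (SE 0.71). The stromal markers had medians of -0.75 and -0.15 in these comparisons, with Col3a1, a fibrillar collagen, at -0.68 (SE 0.57) and -0.19 (SE 0.74). The part of these cell types in the member values was not tested.

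Adipose tissue stood far above the other tissues in all measured members. Adipoq was at 45.2 to 7665 CPM (median 2550) in adipose tissue, against 7.34 to 151 CPM (median 23.0) in kidney. The log2 fold change was 5.71 (SE 0.39, limma adjusted p = 5.9e-19), with 5.74 (SE 0.46) for Retn and 5.82 (SE 0.45) for Fabp4, and 3 of 3 members were called where 24.2% of 5847 genes were called higher in adipose tissue. In CPM, scaled within each tissue, the adipose libraries of rats 6 and 13 lay within the kidney range of Adipoq. The other 22 lay above it. Without rats 6, 11 and 13 the log2 fold changes were 6.25 for Adipoq, 6.26 for Retn and 6.47 for Fabp4.

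Against PFC the log2 fold changes were 6.99 (SE 0.45) for Adipoq, 6.75 (SE 0.45) for Retn and 7.01 (SE 0.48) for Fabp4, and 3 of 3 members were called (background 33.7%). Against ZDF liver, with ZDF rats alone, they were 6.55 (SE 0.31), 6.45 (SE 0.47) and 6.90 (SE 0.39), and 3 of 3 were called (background 21.9%). Slc2a4 could be compared between lean adipose tissue and lean PFC alone, a comparison added after the tables were seen. It was at 3.17 to 206 CPM in lean adipose tissue, against 0.240 to 4.44 CPM in lean PFC, and its log2 fold change was 4.07 (SE 0.51, limma adjusted p = 5.5e-08), with 4 of 4 members called (background 29.2%). For these log2 fold changes the tables were scaled together over shared genes. The CPM were scaled within each tissue, so those of different tissues are not on one joint scale.

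**Figure D4:**
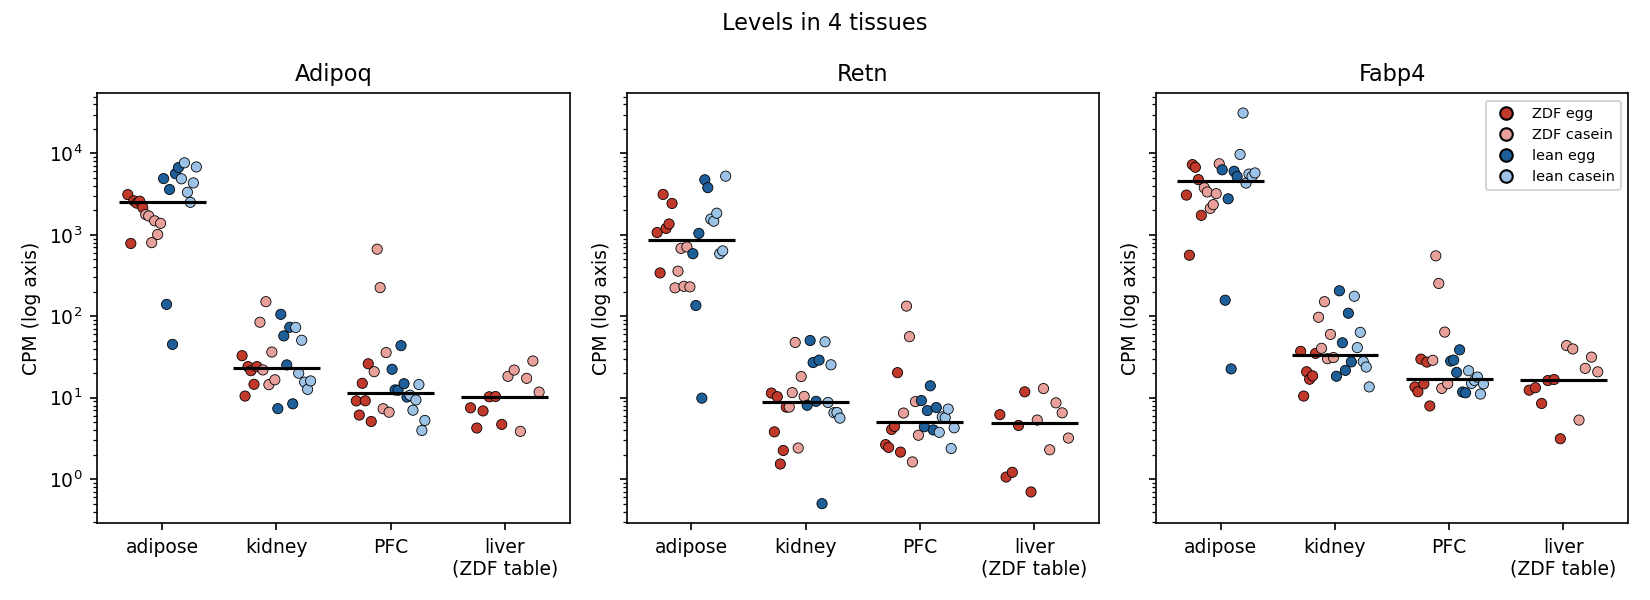
Levels of Adipoq, Retn and Fabp4 (CPM, log axis) in each library of adipose tissue, kidney, PFC and the ZDF liver table, coloured by genotype and diet. Points are rats and lines are medians over all rats of a tissue, and the Retn value of 0 is drawn at 0.5. The medians for Adipoq are 2550 CPM in adipose tissue and 23.0 CPM in kidney. CPM were scaled within each tissue.

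Traces of Adipoq, Retn and Fabp4 were present in nearly every library of the other tissues. In kidney the deposited values were 10 to 132 for Adipoq, 0 to 52 for Retn and 11 to 212 for Fabp4, with a value of 0 in 1 library, for Retn in rat 21. In kidney of ZDF rats 0 of 3 members passed between whole egg and casein (limma, 1 member, Fabp4, at an unadjusted p under 0.05, as were 4.91% of all genes, 0 with DESeq2 and limma-voom), with 0% of genes called. Fabp4 was at 10.5 to 37.1 CPM (median 19.7) on whole egg and 30.1 to 151 CPM (median 50.1) on casein, a log2 fold change of -1.35 (SE 0.44, limma adjusted p = 0.92). Those of Adipoq and Retn were -0.83 (SE 0.52) and -1.0 (SE 0.62). Without rats 1 and 5, both ZDF casein, they were -0.83 (SE 0.44) for Fabp4 and -0.058 (SE 0.47) for Adipoq.

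In lean kidney 0 of 3 members passed, with 0 at an unadjusted p under 0.05, against 3.44% of all genes, and 0% of genes called (limma), and the log2 fold changes were 0.28 (SE 0.61) for Adipoq, 0.015 (SE 0.75) for Retn and 0.25 (SE 0.58) for Fabp4. The kidney of rat 6, whose adipose library was low, had one of the higher traces, at 106 CPM of Adipoq, 50.4 CPM of Retn and 205 CPM of Fabp4. Joint fits of both genotypes in kidney called 0 of 3 members for genotype on casein and on whole egg, with 0% of genes called in each, for diet over both genotypes, with 0.0294%, and for the interaction, with 0%. At an unadjusted p under 0.05 there was 1 member, Fabp4, for genotype on whole egg, with 3.46% of all genes, and for the interaction, with 4.06%. There were 0 for genotype on casein, with 4.28% of all genes, and for diet, with 4.35%.

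In PFC the deposited values were 15 to 87 for Adipoq, 4 to 63 for Retn and 18 to 120 for Fabp4. In ZDF rats 0 of 3 members passed between whole egg and casein (limma, 1 member, Fabp4, at an unadjusted p under 0.05, as were 7.33% of all genes), with 0% of genes called. Adipoq was at 5.10 to 26.1 CPM on whole egg and 6.63 to 666 CPM on casein, a log2 fold change of -1.98 (SE 0.98, limma adjusted p = 0.56). Those of Fabp4 and Retn were -1.88 (SE 0.82) and -1.37 (SE 0.94). The 666 CPM stand for a value of 35 in rat 3, whose total was 67861, and the next highest, 225 CPM, for a value of 16 in rat 5. Over all genes the median log2 fold change was 0.37. DESeq2 called Adipoq (-3.99, adjusted p = 0.029) and Fabp4 (-3.32, adjusted p = 0.038), with 58 genes in all, and without rats 3 and 5 limma gave -0.43 (SE 0.50) for Adipoq, -0.60 (SE 0.44) for Fabp4 and -0.020 (SE 0.56) for Retn.

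In lean PFC 0 of 4 members passed (limma, 1 member, Adipoq, at an unadjusted p under 0.05, as were 3.59% of all genes, 0 with DESeq2), with 0% of genes called. Adipoq was at 10.2 to 43.6 CPM (median 13.7) on whole egg and 3.96 to 14.5 CPM (median 8.20) on casein, a log2 fold change of 1.06 (SE 0.34, limma adjusted p = 1.00). Slc2a4 was at 0.240 to 4.44 CPM on whole egg and 0.287 to 1.91 CPM on casein, from deposited values of 1 to 13, a log2 fold change of 0.58 (SE 0.40). Those of Retn and Fabp4 were 0.56 (SE 0.32) and 0.42 (SE 0.28). Joint fits in PFC called 0 of 3 members for genotype on casein, genotype on whole egg, diet over both genotypes and the interaction, with 0% of genes called in each. For genotype on casein and the interaction 2 members, Adipoq and Fabp4, were at an unadjusted p under 0.05, as were 19.2% and 10.2% of all genes. DESeq2 called both members in each, among 179 genes for genotype on casein and 44 for the interaction. The ZDF casein group of these fits held rats 3 and 5, with totals of 67861 and 164795. Those 2 libraries had the highest CPM of Adipoq and Fabp4 in PFC, from low deposited values. For genotype on whole egg and for diet 0 members were at an unadjusted p under 0.05, with 0.495% and 2.4% of all genes. For genotype on casein limma also called both without rat 24, when 532 genes were called in all. Rat 24 had the lowest Adipoq of the ZDF casein group (6.63 CPM), so leaving it out was not independent of the values tested.

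In ZDF liver, whose table holds counts, 0 of 3 members passed between the diets (edgeR, quasi-likelihood test), and 2, Adipoq and Fabp4, were at an unadjusted p under 0.05. Of all genes 2.93% were called and 13.3% were at an unadjusted p under 0.05. The study listed both members as lower on whole egg in ZDF liver, so their count is not independent evidence. Adipoq had 17, 8, 17, 36, 21 and 27 counts in whole egg rats, against 31, 27, 32, 40, 26 and 22 counts in casein rats. Scaled to depth these were 4.24 to 10.3 CPM on whole egg and 3.86 to 28.2 CPM on casein, and rat 5 (casein) lay below every whole egg library while the other 5 casein libraries lay above them all. The log2 fold change was -1.15 (SE 0.41, edgeR adjusted p = 0.17).

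Fabp4 was at 3.13 to 16.7 CPM (median 12.8) in ZDF liver on whole egg and 5.31 to 43.7 CPM (median 27.2) on casein, a log2 fold change of -1.21 (SE 0.41, edgeR adjusted p = 0.14), and Retn had -0.59 (SE 0.63). Leaving out each rat in turn gave -1.20 to -0.28 for Retn. Without rat 5, whose library was the deepest at 9284567 counts, Adipoq (-1.39, edgeR adjusted p = 0.037) and Fabp4 (-1.45, adjusted p = 0.022) passed, among 230 genes of 9722 called in all. Rat 5 also had the lowest casein CPM of both members, so leaving it out was not independent of the values tested. In the liver table of casein rats, 0 of 3 members passed between ZDF and lean rats (limma, 0 at an unadjusted p under 0.05 against 5.15% of all genes, 0 with DESeq2), with 0.0123% of genes called. Adipoq was at 3.90 to 29.3 CPM in 6 ZDF rats and 7.97 to 49.2 CPM in 5 lean rats. Retn was at 2.29 to 13.6 CPM in the ZDF rats and 4.93 to 28.2 CPM in the lean rats, and Fabp4 at 5.38 to 44.5 CPM in the ZDF rats and 6.45 to 48.3 CPM in the lean rats.

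Trace values did not scale with library totals as other genes of like level did. In ZDF PFC the totals differed by 104-fold and the values of Adipoq by 5.80-fold. In ZDF liver the totals differed by 12.6-fold and the values of Adipoq by 5.00-fold. Over the libraries of each of the 6 tables of other tissues (11 or 12 libraries each), Pearson's r of log2 values of Adipoq with log2 totals ran between -0.48 and 0.42, and Spearman's rho between -0.27 and 0.40. Leaving out the 2 libraries farthest from the median total gave an r of -0.35 to 0.39. Genes with a mean between 0.7 and 1.4 times that of Adipoq had a median r of 0.59 to 0.95 in these tables, and no more than 1.61% of them had a lower r than Adipoq in any. For Fabp4 r was -0.19 to 0.63, against medians of 0.65 to 0.96, and for Retn it was -0.15 to 0.51, against 0.47 to 0.90. CPM divides by the total, and the highest CPM of Adipoq in PFC (rat 3) and in kidney (rat 5) stood in the library with the lowest total of each tissue. Each r is a description of those libraries, and its cause was not tested.

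**Figure D5:**
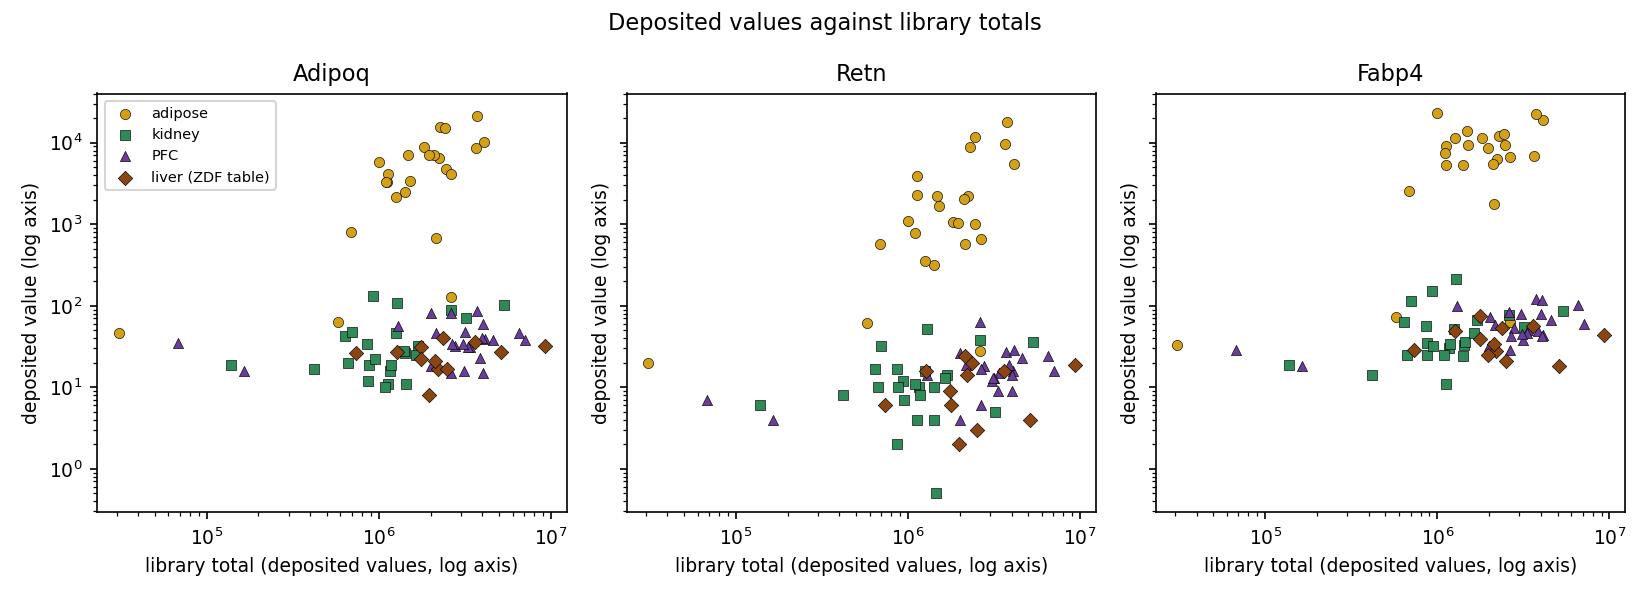
Deposited values of Adipoq, Retn and Fabp4 against the total of each library (both log axes), for adipose tissue, kidney, PFC and ZDF liver. Each point is 1 library, and the Retn value of 0 is drawn at 0.5. Values of Adipoq outside adipose tissue stay between 8 and 132 while totals run from 67861 to 9284567.

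The proportions of Retn and Fabp4 to Adipoq were of one order in every tissue, and Slc2a4 was not part of these ratios. The median ratio of Retn to Adipoq was 0.305 to 0.465 in the adipose tables and 0.308 to 0.593 in the other 6 tables. The median ratio of Fabp4 to Adipoq was 1.16 to 2.05 in the adipose tables and 1.21 to 1.82 in the other 6. These are ratios of deposited 3' end values, with 0.5 added, within a library. In adipose tissue Adipoq took 0.27% of a library's total at the median, Fabp4 0.448%, Retn 0.0896% and Slc2a4 0.00567%, and in kidney Adipoq took 0.00218%.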

How the data were processed

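Adipoq, Retn, Fabp4 and Slc2a4 were read in 89 mRNA libraries of 24 rats in 8 tables, of which 7 liver libraries stand in 2 tables. Libraries were made with the QuantSeq 3' kit, which reads transcript ends, so a gene's value does not grow with its length. The authors trimmed reads, aligned them with STAR to the Ensembl rat genome and counted them per gene, filtered genes by how many samples lacked a read, and normalized libraries by TMM. The ZDF liver table holds counts as deposited. The values of the other 7 tables are whole-number scores as deposited, which look like counts multiplied by 1 factor per library and rounded (columns skip low whole numbers, and libraries in both liver tables differ by 1 constant each, 0.900 to 1.17). The design assumed counts, so the test was changed. Tests were limma (version 3.58.1) on log2 CPM with TMM factors and a prior count of 2, two-sided, with p-values adjusted by Benjamini-Hochberg across every gene of a fit, at 5%, and the quasi-likelihood test of edgeR (version 4.0.16) for ZDF liver counts. DESeq2 (version 1.42.0), limma-voom and edgeR on the deposited whole numbers were alternatives, run in R (version 4.3.3). The authors' comparison tables, with fold changes and p-values, and the microRNA libraries were not used here.

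Libraries of adipose tissue, kidney, PFC and liver are labelled for the same 24 rats, so rat numbers pair tissues. The liver values cover some of these rats, and no lean rat on whole egg. Deviations of adipose and kidney libraries of the same rat had a median correlation of 0.037 (-0.19 to 0.29). Each library of a tissue came from another rat. The tests were tried on simulated data. Members and lists were chosen with earlier results of these data known. Every member with a row was tested in each comparison, and for the joint fits of kidney and PFC its counts alone are given; from each list the genes with the highest mean level were named where none passed, and 1 list gene is not reported here. Intervals and standard errors cover the spread between rats. At library totals as low as 30819, single reads move a value.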

Additional observations from a re-analysis of the deposited data

Results flagged for a closer look

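In 51 groups of 4 to 10 libraries, 4 levels lay far from their nearest neighbour relative to the range of the group, and chance alone flags about 1 in 20 groups. Adipoq in the adipose library of rat 11 (ZDF whole egg) was the lowest of 6 at a log2 CPM of 9.62, with the next at 11.08. Slc2a4 in the adipose library of rat 5 (ZDF casein) was the lowest of 6 at a log2 CPM of 0.10, from a value of 0. Fabp4 in the ZDF liver library of rat 5 (ZDF casein) was the lowest of 6 at a log2 CPM of 2.59, with the next at 4.42. Retn in the PFC library of rat 20 (ZDF whole egg) was the highest of 6 at a log2 CPM of 4.39, with the next at 2.34.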

How the results depend on the processing

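Members were called in the same number under 601 alternatives, and 11 others gave more calls. In ZDF adipose tissue 1 member, Retn, was called in place of 0 with DESeq2, limma-voom and without rat 11, and leaving out 1 rat gave 0 to 1. For ZDF over lean on casein in adipose tissue 1 was called with limma-voom (Retn) and 1 without rats 6 and 13 (Adipoq). In PFC 2 (Adipoq and Fabp4) were called with DESeq2 for diet in ZDF rats, for genotype on casein and for the interaction, and leaving out 1 rat gave 0 to 2 for genotype on casein. In ZDF liver leaving out 1 rat gave 0 to 2. Over all genes the counts rested on the tool: for diet in ZDF adipose tissue 1 gene was called with limma, 2 with edgeR on the deposited whole numbers, 18 with DESeq2 and 53 with limma-voom, and for genotype on casein 8, 17, 84 and 193. DESeq2 called 14 genes in place of 0 for diet in lean adipose tissue, 46 in place of 1 for genotype on whole egg, 16 in place of 0 for diet over both genotypes, 21 in place of 1 for genotype in liver and, in PFC, 58 for diet in ZDF rats, 179 for genotype on casein and 44 for the interaction, in place of 0 each. Of ratios to Adipoq, 1 of 12 passed by the strain of the labels, against 0. With rat as replicate block the tissue comparisons again called 3 of 3 members in kidney, PFC and liver, with 5.71 for Adipoq against kidney, and the block changed no call.

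Log2 fold changes turned as follows, none of them past the threshold. With DESeq2, edgeR on the whole numbers and limma-voom, Fabp4 for diet in ZDF adipose tissue was 0.080, 0.16 and 0.071, Adipoq for ZDF over lean on whole egg was -0.60, -0.61 and -0.35, and Adipoq for diet over both genotypes was 0.089, 0.13 and 0.26. Retn for ZDF over lean on whole egg was -0.10 with DESeq2 and -0.11 with edgeR, and Retn in lean kidney was -0.15 with limma-voom and -0.25 with a pseudocount of 0.5. Without rat 11 Fabp4 for diet in ZDF adipose tissue was 0.35. Without rats 6 and 13 diet in lean adipose tissue was 0.13 for Adipoq and 0.34 for Retn, ZDF over lean on whole egg was -1.27, -0.50, -0.70 and -0.20 for Adipoq, Retn, Fabp4 and Slc2a4, and diet over both genotypes was 0.45 for Adipoq. By the strain of the labels diet in ZDF adipose tissue was -0.73 for Adipoq and -0.40 for Retn, and diet in lean rats was 0.53 for Retn in adipose tissue, -0.71 for Retn in kidney and -0.15 for Fabp4 in PFC. By these labels ZDF over lean on whole egg was -0.33, -1.19, -0.73 and -0.87 for Adipoq, Retn, Fabp4 and Slc2a4, and the interaction was -0.25, -0.92 and -0.67 for Adipoq, Retn and Fabp4. Log2 ratios to Adipoq by these labels were -0.84, -0.39 and -0.45 for Retn, Fabp4 and Slc2a4 for ZDF over lean on whole egg, and -1.20 for Slc2a4 on casein. In the 12 rats with agreeing sources Retn for diet over both genotypes was -0.19. Leaving out 1 rat gave -0.42 to 0.35 for Fabp4 for diet in ZDF adipose tissue, -0.34 to 0.80 for Slc2a4 in lean adipose tissue, -0.23 to 1.20 for Adipoq for ZDF over lean on whole egg and -0.053 to 0.78 for Retn for diet over both genotypes. In lean kidney it gave -0.072 to 0.65 for Adipoq, -0.39 to 0.69 for Retn and -0.17 to 0.65 for Fabp4. The log2 ratio of Retn to Adipoq for ZDF over lean on casein was -0.52 to 0.075. The cause was not tested. At these depths and 6 rats a group, small differences were not detectable.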

Other observations

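The ZDF liver table also holds 1 library of a lean rat on casein, rat 8, which entered no test of that table. It is among the 13 libraries of that table in the median ratios to Adipoq and in the range of Apoa1. Adipoq had 23 counts in the library of rat 8, Retn 17 and Fabp4 21, or 9.17, 6.78 and 8.38 CPM.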
